A study of Bos taurus with 15 samples.

Results

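The genes described here are 10 genes with which fat cells take up, make, store and release fat: PPARG, LPL, FABP4, FASN, SCD, GPD1, DGAT2, PLIN1, PNPLA2 and LIPE. Their transcripts were followed in the thymus, the organ in which T cells mature, of 15 Holstein cows. Members were chosen by name, through the gene name or description that the array files give each probe, which found 9 of them. PLIN1, the remaining 1, was found only through its gene number, since the files call its probe similar to perilipin. The 10 genes had 18 of the 21475 bovine probes of the array and belong to 15043 genes that could be given a symbol. A probe is called detected on an array where at least 1 of its spots was well above background. Of those 18 probes 15 were detected on 7 or more of the 15 arrays and were kept, so that each gene had at least 1 kept probe, as did 11918 genes in all.

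The study compared 7 untreated Holstein cows (control) with 8 Holstein cows that had been given prednisolone, a synthetic glucocorticoid, by mouth (30 mg per head daily for 35 days). Thymus was collected at the slaughterhouse, and total RNA of each animal was labelled with a single dye and hybridised to its own array. Replicates are thus separate animals. Age and body condition were not used here. A value below is the log2 signal of a probe relative to the 75th percentile of the bovine spots of the same array. It compares animals within a gene, not genes with one another.

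Fat cells hold triglyceride in a single large droplet. Fatty acids come from lipoproteins of the blood or are built from acetyl-CoA, are joined to glycerol phosphate, and are stored under a coat of perilipin, from which lipases release them between meals. The nuclear receptor PPARG drives the formation of fat cells, and FABP4, PLIN1 and LPL are among its known targets. The thymus gains fat cells as it shrinks with age, and glucocorticoids are known both to shrink the thymus and to act on fat cell formation and on the release of fatty acids. Several of the 10 genes, among them FASN, SCD, GPD1 and PNPLA2, are also used by cells other than fat cells.

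Of the bovine spots of an array, 67.1% to 77.7% were well above background. Precision is limited by how many arrays there are. The arrays lay on 4 slides. Slide 1 held controls 1, 2 and 5 with prednisolone animal 6, slide 2 held control 3 with prednisolone animals 3, 5 and 8, slide 3 held controls 4, 6 and 7 with prednisolone animal 1, and slide 4 held prednisolone animals 2, 4 and 7 alone. Slides differed at 30.6% of the probes tested (4911 of 16053, limma F-test with treatment in the model, adjusted p under 0.05), and at 28% of genes by 1 probe. Of the 10 genes, each by the 1 probe chosen for it, 0 passed that test, and 1 had an unadjusted p under 0.05, PPARG (limma adjusted p = 0.0597). Of their other 5 kept probes 3 passed, a pair of FASN probes (limma adjusted p = 0.0168 and 0.0446) and 1 of SCD (0.0440). Markers of immature thymocytes were measured for 10 of 10 listed genes on the array. Their summed linear signal lay between 214.6 and 267.1 times the 75th percentile in controls and between 228.6 and 274.2 times with prednisolone.

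Several arrays carried transcripts of organs other than the labelled thymus. On the arrays of prednisolone animals 3 and 4 the liver gene ALB stood at -1.01 and 0.96, while the other 13 arrays lay between -7.83 and -6.81. PRM1, a protamine of developing sperm, stood between 1.21 and 4.37 in controls 1, 4 and 6 and prednisolone animal 8, and between -5.51 and -1.25 in the other 11 animals. Results below were also computed without these 2 and these 4 arrays and without the 3 arrays of slide 4.

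**Figure D1:**
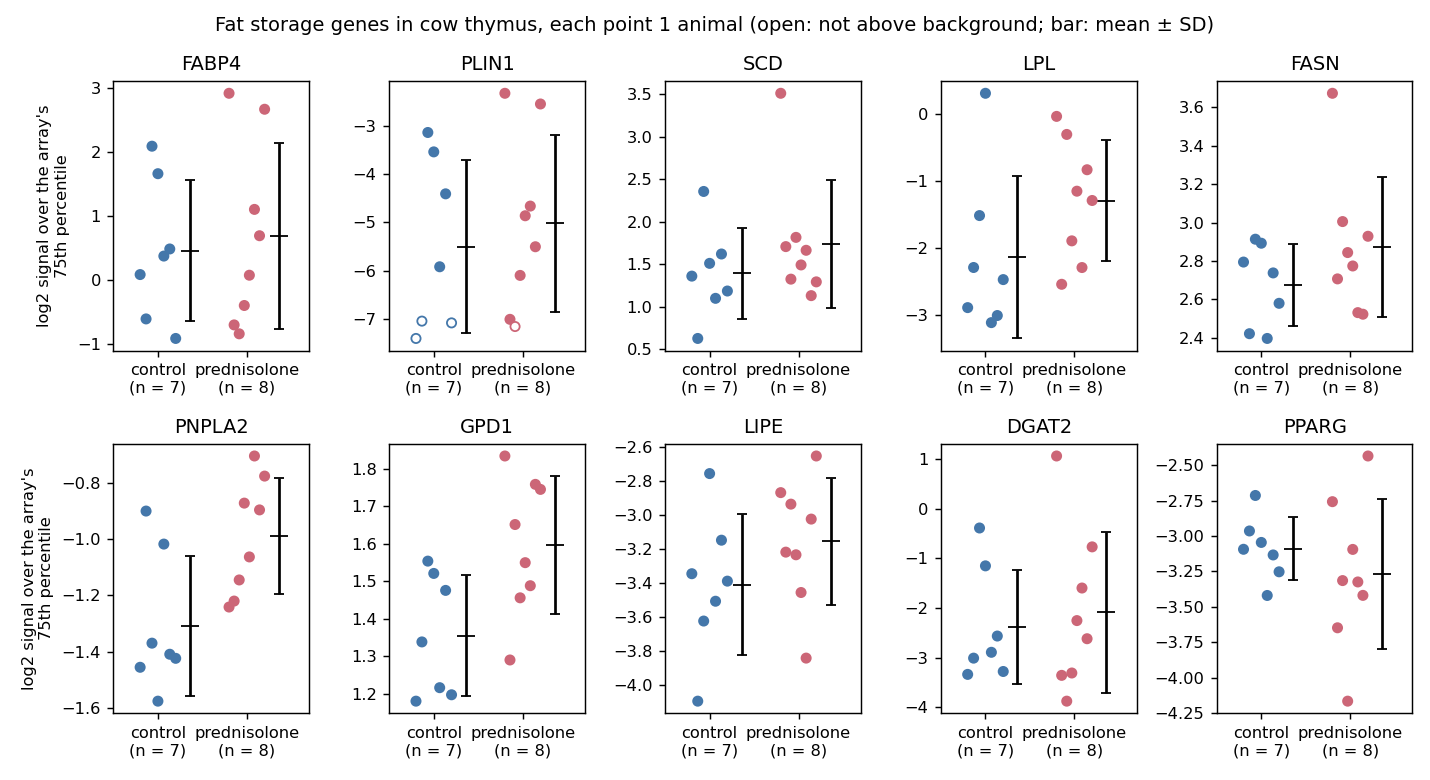
Log2 signal of each of the 10 genes relative to the 75th percentile of the array, 1 panel a gene, with 7 controls in blue and 8 prednisolone animals in red. Each point is 1 animal, open points were not detected (PLIN1 only), and bars give the mean ± SD. In every panel the groups overlap, and in the FABP4, PLIN1 and DGAT2 panels 2 animals of each group stand above the rest.

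The carrier FABP4, which binds fatty acids in the cytosol of fat cells, was among the most variable genes of these thymuses (probe A_73_114371). Controls ran from -0.91 to 2.09 with a median of 0.37, and prednisolone animals from -0.84 to 2.91 with a median of 0.38. The 4 highest animals were prednisolone animals 1 and 8 (2.91 and 2.66) and controls 3 and 4 (2.09 and 1.66), so that high values occurred in both groups. The highest animal was 14.2-fold above the lowest, while the 2 spots of the probe on an array differed with a median SD of 0.054 on the log2 scale.

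PLIN1, the perilipin that coats the fat droplet and holds lipases back, was dim and varied widely (probe A_73_114190). It was detected on 4 of 7 control arrays and on 7 of 8 prednisolone arrays. Controls ran from -7.41 to -3.14 with a median of -5.92, and prednisolone animals from -7.16 to -2.32 with a median of -5.18. Over the 11 arrays that measured it, the highest was 25.8-fold above the lowest. That lowest value, -7.01 in prednisolone animal 2, lay close to the highest of the arrays that did not detect it (-7.05). The same 4 animals as for FABP4 were highest: prednisolone animals 1 and 8 at -2.32 and -2.54, and controls 3 and 4 at -3.14 and -3.54.

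DGAT2, which adds the last fatty acid to make triglyceride, followed the same animals (probe A_73_118582). Its values lay between -3.34 and -0.39 in controls (median -2.89) and between -3.88 and 1.06 with prednisolone (median -2.44), a 30.7-fold range over the 15 animals. Prednisolone animal 1 stood at 1.06, control 3 at -0.39, prednisolone animal 8 at -0.77 and control 4 at -1.15, and every other animal lay at -1.60 or below.

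LPL, the lipase that frees fatty acids from blood lipoproteins at the vessel wall, also varied widely but ordered the animals differently (probe A_73_108260). Controls lay between -3.11 and 0.31 with a median of -2.47, and prednisolone animals between -2.54 and -0.04 with a median of -1.22. The highest animals were control 4 at 0.31, prednisolone animal 1 at -0.04 and prednisolone animal 3 at -0.30, the last being next to lowest for FABP4. Of the 7 controls, 5 lay below -2, against 2 of the 8 prednisolone animals.

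The enzymes that build fatty acids varied less. FASN, which makes palmitate, lay between 2.40 and 2.91 in controls (median 2.74) and between 2.52 and 3.67 with prednisolone (median 2.81), a 2.42-fold range (probe A_73_101384). SCD, which puts a double bond into fatty acids, lay between 0.63 and 2.36 in controls (median 1.36) and between 1.13 and 3.51 with prednisolone (median 1.58), a 7.37-fold range (probe A_73_106141). Prednisolone animal 1 was the highest of 15 for both enzymes. The next values were 3.00 for FASN, in prednisolone animal 3, and 2.36 for SCD, in control 3.

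GPD1, which makes the glycerol phosphate backbone of triglyceride, was the most even of the 10 (probe A_73_119563). It lay between 1.18 and 1.55 in controls (median 1.34) and between 1.29 and 1.83 with prednisolone (median 1.60), a 1.57-fold range. Of the 8 prednisolone animals, 4 lay above the highest control.

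The lipases that take stored fat apart had narrow ranges as well. PNPLA2, which removes the first fatty acid from triglyceride, lay between -1.58 and -0.90 in controls (median -1.41) and between -1.24 and -0.70 with prednisolone (median -0.98), a 1.83-fold range (probe A_73_109673). Controls 2 and 5 (-0.90 and -1.02) stood among the prednisolone animals, and the other 5 controls lay below all 8 of them. LIPE, the hormone-sensitive lipase that acts next, lay between -4.10 and -2.76 in controls (median -3.39) and between -3.84 and -2.65 with prednisolone (median -3.12), a 2.72-fold range (probe A_73_101039).

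The regulator PPARG had a 3.32-fold range (probe A_73_115984). It lay between -3.42 and -2.71 in controls (median -3.09) and between -4.17 and -2.43 with prednisolone (median -3.32). Prednisolone animal 8 and control 3 were highest, and prednisolone animals 4 and 2, both on slide 4, were lowest.

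**Figure D2:**
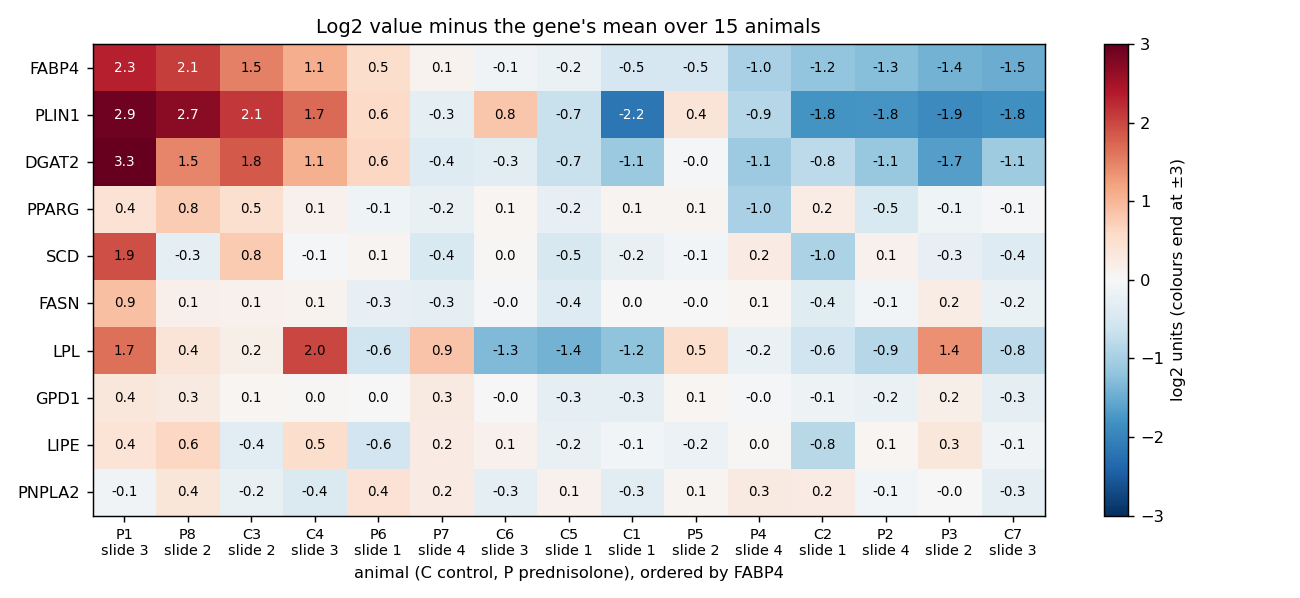
Log2 value of each gene minus its mean over 15 animals, with the animals ordered by FABP4 from high on the left to low on the right and the slide under each name. FABP4, PLIN1 and DGAT2 fall together from left to right with C and P animals mixed, while PNPLA2 shows no such order and GPD1 stays within about 0.4 of its mean.

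Over the 15 animals the SD of the log2 value was 1.77 for PLIN1, 1.38 for DGAT2, 1.26 for FABP4 and 1.11 for LPL. These 4 of 10 genes had an SD above 1, as did 3.32% of all genes (396 of 11918). By SD, PLIN1 stood at percentile 99.7, FABP4 at 98.2 and LPL at 97.3 of those genes, while FASN, PNPLA2 and GPD1 stood at 63.6, 56.7 and 40.5. The SD of PLIN1 includes arrays on which it was not detected. Treatment group accounted for 0.928% of the spread of FABP4, 1.13% of that of DGAT2 and 2.01% of that of PLIN1, against 36.1% for PNPLA2 and 35.8% for GPD1. The share between slides was 15.8% for FABP4, 22.7% for DGAT2 and 29.4% for PLIN1, and highest for PPARG, at 57.3%.

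Across the animals FABP4, PLIN1 and DGAT2 moved together. Pearson r was 0.941 between FABP4 and PLIN1 (Spearman rho 0.886), 0.943 between FABP4 and DGAT2 (rho 0.889) and 0.928 between PLIN1 and DGAT2 (rho 0.939), over 15 animals that share array scaling with both genes of a pair. Each r had a two-sided permutation p of 1e-05, the smallest that 1e+05 permutations can give, and an adjusted p of 0.00015 over the 45 pairs computed, and each rho had an adjusted p of 0.00045. Since the members were chosen with results of these data known, these p-values are not independent evidence. Without prednisolone animals 1 and 8, the farthest from the median, r was 0.897 and 0.928 for the pairs with FABP4, and 0.920 for PLIN1 with DGAT2. With slide means removed, r was 0.952, 0.937 and 0.920 for these 3 pairs.

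The same 3 pairs held within each group. FABP4 correlated with PLIN1 at 0.912 over the 7 controls and 0.972 over the 8 prednisolone animals. With DGAT2 it correlated at 0.927 and 0.949. Leaving out the 4 arrays with testis transcripts gave 0.968 for FABP4 with PLIN1, 0.961 for FABP4 with DGAT2 and 0.961 for PLIN1 with DGAT2. In bulk tissue, fewer fat cells and less RNA per fat cell cannot be told apart.

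LPL and GPD1 were the other pair that passed for both r and rho. Their r was 0.775 and their rho 0.804 (permutation p adjusted over the 45 pairs 0.00922 and 0.00461). The relation held without control 4 and prednisolone animal 1 (r = 0.826), with slide means removed (0.677) and without the 4 arrays with testis transcripts (0.931). LPL with FABP4 gave r = 0.452, which did not pass (permutation adjusted p = 0.161). GPD1 also passed for r, though not for rho, with FABP4 (r = 0.637), PLIN1 (0.689) and DGAT2 (0.619). With slide means removed these r values were 0.681, 0.666 and 0.662.

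SCD and FASN, the enzymes of fatty acid synthesis, gave r = 0.841 (permutation adjusted p = 0.0107), but rho was 0.561 and did not pass (adjusted p = 0.129). That relation rested on the extreme animals: without control 2 and prednisolone animal 1, r was 0.417, and without prednisolone animal 1 alone it was 0.557. Of FASN's other kept probes, 1 followed the shown probe with r = 0.789 and others with 0.593 and 0.190. Of SCD's, 1 did so with r = 0.634 and correlated with FABP4 at 0.701, and another ran opposite with r = -0.562.

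PPARG was less closely tied to FABP4, PLIN1 and DGAT2 than those 3 were to one another in r. Its r was 0.665 with FABP4, 0.659 with DGAT2 and 0.603 with PLIN1, which passed, whereas the rho values (0.543, 0.639 and 0.493) did not pass (permutation adjusted p = 0.140, 0.0970 and 0.179). Without prednisolone animals 1 and 8, r with FABP4 was 0.460. Its r with LPL was 0.280, which did not pass (permutation adjusted p = 0.420).

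PNPLA2 showed little relation to the other genes over all animals. Its r with the other 9 genes lay between -0.28 and 0.28, and none of them passed. With FABP4 it was 0.013 (permutation adjusted p = 0.972). With slide means removed, r was 0.593 with GPD1, 0.410 with PLIN1 and 0.279 with FABP4, and slides held 41.0% of the spread of PNPLA2. LIPE correlated with FABP4 at 0.385 and with PNPLA2 at -0.236, neither of which passed.

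**Figure D3:**
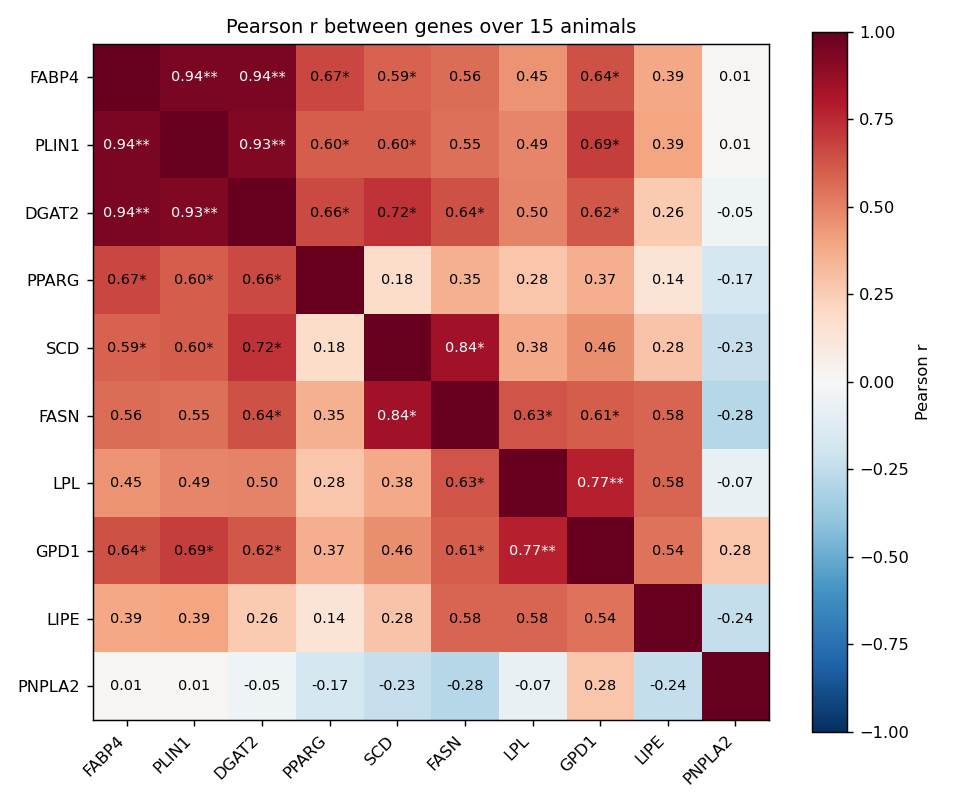
Pearson r between each pair of the 10 genes over 15 animals, red above 0 and blue below. One asterisk marks pairs that passed for r alone and a pair of asterisks those that passed for both r and rho (permutation, adjusted over 45 pairs): FABP4, PLIN1 and DGAT2 form the darkest block, and the PNPLA2 row is near 0.

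In all, 39 of the 45 pairs had r above 0, 17 passed for r and 4 for both r and rho. The median r of the 45 pairs was 0.499, and 4 of them were at 0.8 or more. Over all pairs of 11861 genes the median r was 0.007, the 5th and 95th percentiles were -0.571 and 0.606, and 0.845% of pairs had r of 0.8 or more.

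Among the genes whose pattern was most like the mean of the 10 were, in order of r over 15 animals, ADIG (0.961), TRARG1 (0.960), GALNT16 (0.948), COL5A3 (0.924), CIDEC (0.921), HSPA12A (0.917), AGPAT2 (0.916), ACSM1 (0.916) and ADIRF (0.915). The mean was of centred, unscaled log2 values. PLIN1, DGAT2, FABP4 and LPL (SD 1.77, 1.38, 1.26 and 1.11) thus weigh most in it, and GPD1 (SD 0.21) least. ADIG encodes adipogenin, a small membrane protein of fat cells that was detected here on 9 arrays. TRARG1 is known from mice as a partner of the insulin-responsive glucose transporter, COL5A3 is a chain of collagen V, and AGPAT2 makes phosphatidic acid on the way to triglyceride. Without prednisolone animal 1 these 9 r values lay between 0.869 and 0.955. The lowest r belonged to FGF13 (-0.885), SNAP25 (-0.853), RIDA (-0.847), IMMP2L (-0.844) and DIPK1A (-0.832).

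For FABP4 alone, the nearest genes were TRARG1 (r = 0.985), CIDEC (0.960), ADIG (0.948), ADIRF (0.928) and GALNT16 (0.925). CIDEC helps small fat droplets fuse into large ones. It was detected on all 15 arrays and ran from -3.32 to 0.94 in controls (median -2.15) and from -4.26 to 1.61 with prednisolone (median -1.23). Its 4 highest animals were those of FABP4.

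**Figure D4:**
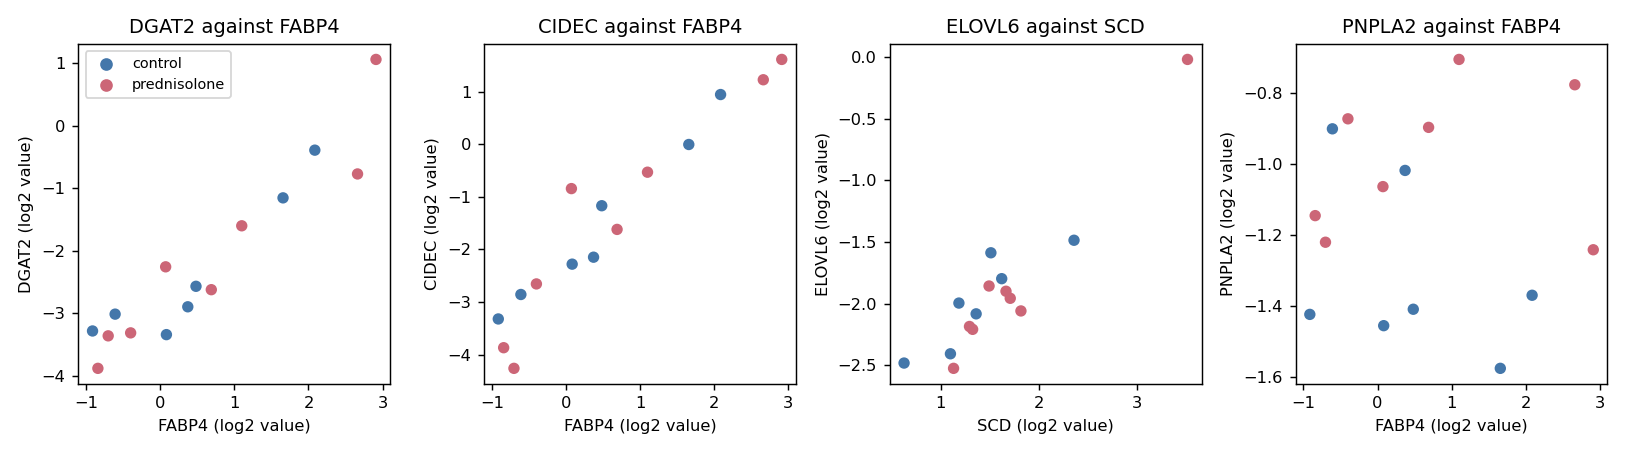
Log2 values of 15 animals (blue control, red prednisolone) for DGAT2 and CIDEC against FABP4, ELOVL6 against SCD and PNPLA2 against FABP4. DGAT2 and CIDEC rise with FABP4 across both groups (r = 0.943 and 0.960), prednisolone animal 1 lies far out at the top right for ELOVL6 and SCD, and PNPLA2 shows no slope (r = 0.013).

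Other genes of fat storage ranged from close followers of FABP4 to genes that did not follow it, with many in between. Among droplet coat and lipolysis genes CIDEC and the caveolar protein CAV1 (r = 0.866) were at 0.8 or more, 2 of 14, while PLIN2, a perilipin found in many cell types, had r = 0.121. In fatty acid uptake 1 of 12 reached 0.8, the fatty acid transporter CD36 (0.907), and in triglyceride synthesis 1 of 13, AGPAT2 (0.870). In fatty acid synthesis 1 of 16 did, THRSP, a lipogenic gene of fat and liver (0.825), whereas the desaturase FADS1 had r = -0.648. The binding proteins FABP3 and FABP5, relatives of FABP4 in muscle and skin, had r = -0.620 and -0.580. Over all 11851 genes other than the members, 0.245% had r of 0.8 or more with FABP4 and the median r was 0.003.

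Markers of fat cells moved with FABP4 in part. The mean of the 6 adipocyte markers that were kept followed FABP4 with r = 0.937 and rho = 0.879 (permutation p adjusted over 9 marker lists 9e-05 and 0.00063), and r was 0.873 without prednisolone animals 1 and 8. The marker lists were written with results of these data known, so these p-values are not independent evidence. That mean was of unscaled log2 values, in which a gene of wide spread such as CIDEC (SD 1.84) weighs more. Of those 6, 4 had r above 0, CIDEC, ADIRF, THRSP and CFD (0.653), while LGALS12, a galectin of fat cells, had r = -0.060 and ACACB -0.458. The defining hormones were dim. ADIPOQ, adiponectin, was detected on 2 of 7 control arrays and on 4 of 8 prednisolone arrays, and its highest values were again those of prednisolone animals 1 and 8 (-3.26 and -4.02) and controls 3 and 4 (-4.60 and -5.05). Leptin (LEP) was detected on 1 of 15 arrays and AQP7, a glycerol channel, on 0.

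Of the other 8 marker lists, 0 passed with FABP4. Endothelium had r = 0.538, thymic epithelium -0.514 and mammary or secretory epithelium -0.524, each with a permutation p adjusted over 9 lists of 0.102. Immature thymocytes had r = -0.340 (0.305), macrophages 0.305 and fibroblasts 0.311. Markers within a list differed: 6 of 10 thymocyte markers and 1 of 3 mammary markers had r above 0. Without prednisolone animals 1 and 8, r was 0.345 for endothelium, -0.242 for thymic epithelium, -0.047 for mammary epithelium and -0.129 for immature thymocytes. The part of these cell types in the values of the 10 genes was not tested.

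The comparison of treated with untreated cows asks which thymus transcripts differ with prednisolone. Of the 10 genes, 0 passed (limma, Benjamini-Hochberg adjusted p under 0.05 over 16069 probes), as was so for all probes tested (0%, with a smallest adjusted p of 0.236). The log2 difference, prednisolone minus control, was positive for 9 of the 10, against 50.4% of all genes, and for 6 of the 10 with normexp background correction, under which PLIN1, LIPE and DGAT2 were negative as well and the median of all probes was -0.21. Its median over the 10 genes was 0.27, against 0.001 over all genes. PLIN1, on the higher side, was detected on 4 of 7 control arrays and passed the filter only with its prednisolone arrays. Among the 9 genes detected on all 15 arrays, which leave it out, 8 were positive and the median was 0.26. Of the 10, 2 reached an unadjusted p under 0.05, PNPLA2 and GPD1, both on the higher side, where 7.08% of all probes (1138) did so in either direction and 3.98% on the higher side. The values on which these differences rest overlapped between the groups for each of the 10 genes.

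PNPLA2 averaged -1.31 ± 0.25 (SD, n = 7) in controls and -0.99 ± 0.21 (SD, n = 8) with prednisolone. The log2 difference was 0.32 ± 0.12 (SE), with a 95% interval from 0.07 to 0.57 (limma adjusted p = 0.655, unadjusted p = 0.0157). Within slides 1, 2 and 3 it was 0.42, 0.37 and 0.23. Slides 1 and 3 held only 1 prednisolone animal each and slide 2 only 1 control, here and for the within-slide values below. Without the 4 arrays with testis transcripts, 3 of them controls, the PNPLA2 difference was 0.16. GPD1 averaged 1.35 ± 0.16 in controls and 1.60 ± 0.18 with prednisolone (SD), a log2 difference of 0.24 ± 0.094 (SE) with a 95% interval from 0.04 to 0.44 (limma adjusted p = 0.655, unadjusted p = 0.0207). Within slides 1, 2 and 3 it was 0.24, 0.09 and 0.44.

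LPL had a difference of 0.85 ± 0.51 (SE), from -2.14 ± 1.21 in controls to -1.29 ± 0.90 with prednisolone (SD), and did not pass (limma adjusted p = 0.754). Its 95% interval ran from -0.23 to 1.92. Within slides 1, 2 and 3 the difference was 0.47, 0.60 and 1.69. It was 0.92 with slide as a block, 1.12 without slide 4 and 0.38 with normexp background correction, under which PNPLA2 gave 0.11.

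For the genes that moved together, the spread between animals of a group exceeded the difference between groups. FABP4 averaged 0.45 ± 1.1 in controls and 0.69 ± 1.46 with prednisolone (SD), a difference of 0.24 ± 0.63 (SE; 95% interval -1.1 to 1.57). For PLIN1 the difference was 0.49 ± 0.87 (-1.37 to 2.34), and for DGAT2 0.28 ± 0.68 (-1.17 to 1.74). The limma adjusted p was 0.961, 0.941 and 0.957. The intervals include changes of more than 2-fold in either direction. Within slides 1 and 3 all 3 differences were positive, from 1.15 to 3.40. There prednisolone animals 6 and 1 were the only treated animals, 1 on each slide. Within slide 2, where control 3 was the only control, all 3 were negative, from -1.91 to -1.45.

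These 3 differences rested on single animals. Without prednisolone animal 1, FABP4 gave -0.082, DGAT2 -0.17 and PLIN1 0.10. Without prednisolone animal 8, FABP4 gave -0.047, DGAT2 0.096 and PLIN1 0.13. With slide as a block, the values were 0.73, 0.99 and 1.03. Without the 2 arrays with liver transcripts they were 0.67, 0.79 and 1.02. The 95% intervals given above span all of these values.

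SCD had a log2 difference of 0.35 ± 0.32 (SE), FASN 0.20 ± 0.15, LIPE 0.26 ± 0.19 and PPARG, the 1 gene on the lower side, -0.18 ± 0.20 (limma adjusted p from 0.817 to 0.894). Their 95% intervals were -0.33 to 1.03 for SCD, -0.13 to 0.52 for FASN, -0.15 to 0.67 for LIPE and -0.62 to 0.25 for PPARG. Without prednisolone animal 1, SCD gave 0.096 and FASN 0.082. For PPARG the value was -0.004 in the blocked fit and 0.10 once slide 4 was left out. The second kept probe of SCD gave 0.12, the third 0.08, and the other kept probes of FASN gave 0.10, 0.08 and -0.06, none of which passed.

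The median difference of the 10 genes also moved with these choices. It was 0.45, -0.12 and 1.31 within slides 1, 2 and 3, with 7, 4 and 10 genes on the higher side. With slide as a block it was 0.46. Without prednisolone animal 1 it was 0.098, with 7 genes higher and 3 lower.

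**Figure D5:**
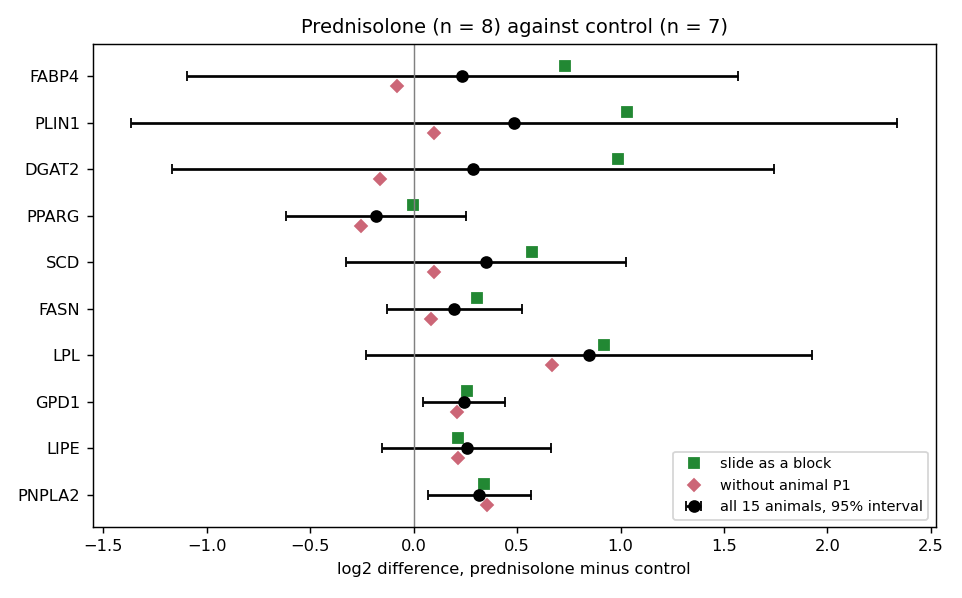
Log2 difference, prednisolone (n = 8) minus control (n = 7), of each of the 10 genes, with black points and 95% intervals for all 15 animals, green squares for the fit with slide as a block and red diamonds for the fit without prednisolone animal 1. The intervals of FABP4, PLIN1 and DGAT2 are the widest, only those of GPD1 and PNPLA2 lie above 0, and the red diamonds of FABP4 and DGAT2 lie below 0.

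Other genes of the pathway gave the same count, 0 past the limma threshold in each list. At an unadjusted p under 0.05 there were 1 gene in the droplet list, 2 in triglyceride synthesis, 1 in fatty acid synthesis, 3 among hormones and identity genes and 0 in the uptake, transcription factor and brown fat lists, where 7.08% of all probes did so; the lists with 1 such gene are near that share. The counts on the higher side below stand against 50.4% of all genes. They include CAVIN1, PCK1 and THRSP, detected on fewer control arrays than the filter needs, which passed it only with their prednisolone arrays. Among droplet coat and lipolysis regulators 11 of 14 measured genes were on the higher side (median log2 difference 0.086). Those with the smallest p were G0S2, an inhibitor of PNPLA2 (0.33 ± 0.15 SE), the caveolar coat protein CAVIN1 (0.44 ± 0.23, detected on 1 of 7 control arrays), PLIN3 (0.14 ± 0.11) and CIDEA (0.33 ± 0.30). Among fatty acid uptake and activation genes 4 of 12 were on the higher side (median -0.038), led by the lipoprotein receptor VLDLR (0.18 ± 0.11), the transporter SLC27A4 (-0.16 ± 0.10), LMF1, which matures lipases (-0.11 ± 0.076), and ANGPTL4, an inhibitor of LPL (-0.21 ± 0.19). None of these genes passed.

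In glycerol phosphate and triglyceride synthesis 8 of 13 measured genes were on the higher side (median 0.023). DGAT1, the other enzyme of the last step, gave -0.27 ± 0.11 (SE), and PCK1, an enzyme of glycerol and glucose formation in fat and liver, 1.15 ± 0.47, detected on 3 of 7 control arrays and on 7 of 8 prednisolone arrays. PCK1 stood at -3.43 and -4.92 on the 2 arrays with liver transcripts, the first of them its highest value of the 15, and without them its difference was 0.78. GPD1L gave 0.18 ± 0.14 and the acyltransferase GPAM -0.53 ± 0.44, but without slide 4 they gave -0.039 and 0.32, and -0.029 and 0.25 in the fit that blocked on slide. DGAT1 gave -0.16 without slide 4 and -0.079 with slide as a block. In fatty acid synthesis and desaturation 13 of 17 were on the higher side (median 0.069), led by the transcription factor MLXIPL (0.40 ± 0.16), ACSS2, which activates acetate (0.18 ± 0.088), THRSP (0.81 ± 0.52, detected on 2 of 7 control arrays and on 7 of 8 prednisolone arrays) and ACACB (0.09 ± 0.070). None of them passed.

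Of the transcription factors of fat cell formation, 8 of 11 measured were on the higher side (median 0.14), led by RXRA, the partner of PPARG (0.25 ± 0.12 SE), CEBPA (-0.47 ± 0.25), STAT5B (0.24 ± 0.16) and CEBPB (-0.22 ± 0.16). CEBPA gave -0.042 without slide 4, and RXRA 0.077 without the 4 arrays with testis transcripts. Of the hormones and identity genes of fat cells, 12 of 16 were on the higher side (median 0.090). Beside PCK1 they were led by the adiponectin receptor ADIPOR2 (0.33 ± 0.15), LGALS12 (0.28 ± 0.13) and the iron carrier TF (2.0 ± 1.1). TF, which liver secretes, stood at 0.76 and 2.48 on the 2 arrays with liver transcripts and between -6.22 and -3.77 on the others, and without them its difference was 0.41. Of 4 measured brown fat genes 2 were on the higher side (median -0.029), and UCP1, the defining gene, was detected on 0 control arrays and on 3 prednisolone arrays. None of these passed either.

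Among the cell type markers, adipocyte genes were on the higher side for 5 of 6 measured (median 0.14), with a summed linear signal of 3.06 to 8.10 times the 75th percentile in controls and 3.02 to 10.5 times with prednisolone. THRSP, among the 5, passed the filter only with its prednisolone arrays. Fibroblast markers were higher for 10 of 12 (median 0.21; sums 3.40 to 5.48 and 3.60 to 6.27) and macrophage markers lower for 12 of 12 (median -0.23; sums 13.7 to 26.4 and 10.9 to 24.8). At an unadjusted limma p under 0.05 there were 4 fibroblast, 1 adipocyte and 0 macrophage markers, where 7.08% of all probes did so. None of the markers in these lists passed limma's adjusted threshold, and their part in the values of the 10 genes was not tested. Slide 4, which held no control, had the lowest macrophage marker means of the prednisolone animals. They were -1.24, -1.54 and -1.08 in animals 2, 4 and 7. The other prednisolone animals lay between -1.06 and -0.57, and the controls between -1.25 and -0.45.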

How the data were processed

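Transcripts in thymus RNA of 15 Holstein cows were measured on 1-colour Agilent bovine arrays, with the groups taken from the treatment label of each sample. Replicate numbers follow the order of the samples and pair nothing. The deposited scanner files hold spot intensity as written by version 9.5.1.1 of Feature Extraction, per the file headers. The processed signal is background-subtracted and detrended within an array, per the labels' design text. Per the file headers, flags of single spots came from the same software. A table deposited by the authors gives intensity values on a linear scale, whose column medians were 184.8 to 271.2 and with a rank correlation of at least 0.9996 to the processed signal; their centring is unknown. R 2.11.1 is named in the submitters' processing notes, and the method of normalization is not given in the sources used here.

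Each array's 75th percentile over bovine spots was subtracted from its log2 processed signal. Outlier spots were left out and the spots of a probe averaged. The filter kept 16069 probes, those with a spot well above background on 7 or more of the 15 arrays. Each gene is shown by its kept probe of highest mean. Symbols came mainly from gene number (9699 probes), accession (3386) and description (2853), matched to a RefSeq gene table, and 4755 probes had none. No coordinates or sequences were used.

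The comparison of groups used limma 3.58.1 (R 4.3.3) with Benjamini-Hochberg adjustment over all kept probes. Correlations used 1e+05 permutations (numpy 2.4.6, scipy 1.17.1). The calculation was tested on simulated data. The members, gene lists and tests were chosen with earlier results of these data known. All 10 members are named, with the 10 genes most like and the 5 least like their mean, the 5 most like FABP4, and up to 4 genes of smallest p per list; CAV1, CD36, AGPAT2, PLIN2, FADS1, FABP3, FABP5, and the genes most like other members were named after their values were seen. A gene that this rule names is left out here. Alternatives were other scalings, normexp (offset 50), values as the authors deposited them, other filters, slide as a block, eBayes with trend and robust, and each animal left out. Leaving out slide 4, arrays with liver or testis transcripts (each of 4 marker genes at least 1 log2 unit above its median) or PLIN1 was added after the data were seen. All arrays were scanned on the same day.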

Additional observations from a re-analysis of the deposited data

Results flagged for a closer look

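Prednisolone animal 1 stood apart from the other 7 prednisolone animals for 2 genes of fatty acid synthesis, each by its shown probe. Its SCD value was 3.51 (log2 signal relative to the 75th percentile of the array), and the next of the group was 1.82, so that the gap made up 0.712 of the range of the group. Its FASN value was 3.67, with the next at 3.00 and a gap of 0.581 of the range. Among the 20 groups of values examined (10 genes in 2 groups, by shown probes only) these 2 stood out, and chance marks about 1 in 20 groups. On SCD probe A_73_116477 the animal stood at -0.80, with the next of the group at -1.79. On A_73_104575 it was the lowest of the group, at -6.93, and not detected. On FASN probes A_73_104455 and A_73_101920 it stood at -2.24 and -4.11, with the next at -2.55 and -4.15. On A_73_101323 it stood at -5.09, below animals 5 and 8 (-4.85 and -5.06). The cause of these values was not tested.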

How the results depend on the processing

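None of the 10 genes passed limma's test between treated and untreated cows under any alternative, and their median difference (0.098 to 0.41 with 1 animal left out) and mean r over the pairs (0.32 to 0.46, against 0.42) stayed positive under the alternatives run over several slides; within slide 2 alone the median was -0.12. Over all kept probes, quantile normalization gave 1 changed probe and leaving out 1 animal 0 to 3, the 3 without prednisolone animal 1. With normexp background correction PLIN1 gave -0.54, LIPE -0.31 and DGAT2 -0.093; the median of all probes was then -0.21, and relative to it the values were -0.33, -0.10 and 0.11. The same setting moved LPL to 0.38, PNPLA2 to 0.11 and PPARG to -0.50. With 1 animal left out FABP4 ranged from -0.082 to 0.51 and DGAT2 from -0.17 to 0.62. Without slide 4 PPARG gave 0.10. The cause was not tested. At an unadjusted p under 0.05, normexp gave 2987 probes, against 1138, leaving out the 2 arrays with liver transcripts 812, the 4 with testis transcripts 705 and dim probes unfiltered 1728.

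No paired analysis was possible because the labels give no replicate numbers that the groups share. Signal over background limits PLIN1, which was not well above background on 4 of 15 arrays: without it the median difference was 0.26 and the mean r 0.39. PLIN1 rests on 1 probe named by gene number. Slide 4 held no control, so that its part in the group difference cannot be told apart from treatment there.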

Other observations

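The other members had neighbours of their own, named here after their values were seen and given as r over 15 animals. SCD was followed most closely by ELOVL6, which lengthens fatty acids (r = 0.936, and 0.802 without prednisolone animal 1). ELOVL6 stood at -0.02 in prednisolone animal 1, while the other 14 animals lay between -2.52 and -1.49. FASN was nearest to the amino acid transporter SLC7A6 (0.867), with ELOVL6 next (0.851, and 0.539 without prednisolone animal 1).

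PNPLA2 was nearest to ZSCAN31 (0.909) and ULK1, a kinase that starts autophagy (0.907, and 0.854 with slide means removed). LGALS12, a fat cell galectin, correlated with PNPLA2 at 0.853 and with FABP4 at -0.060. LPL was nearest to the carbonic anhydrase CA9 (0.843), GPD1 to YTHDF1 (0.850), LIPE to CCDC120 (0.866) and PPARG to CILP, a cartilage matrix protein (0.904). DGAT2 was nearest to ADIG (0.974) and PLIN1 to CIDEC (0.956).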
